A study of Mus musculus with 6 samples.

Results

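The genes described here encode the contractile apparatus of smooth muscle and of myofibroblasts (contractile fibroblasts), together with a pair of secreted proteins induced in the same cells. They are 10 genes, Acta2, Actg2, Tpm1, Tpm2, Cnn1, Cnn2, Tagln, Myl9, Ctgf and Cyr61, chosen by symbol from the gene names of the deposited table, and each had 1 row among the 51482 distinct measurements of that table, of which 14575 were tested. RNA was sequenced from wild-type (WT) mouse embryonic fibroblasts immortalised with SV40, a virus whose large T antigen keeps cells dividing, after 16 h at 21% oxygen (normoxia, 3 samples) or 0.5% oxygen (hypoxia, 3 samples). All samples share the genotype and the SV40 immortalisation and differ, per the labels, in oxygen. Clonality of the line, and whether replicates were separate cultures, were not given in the sources used here, so the q may measure technical spread only. The authors' table merges the 3 replicates into 1 FPKM (a level corrected for transcript length and sequencing yield) per gene and condition, so no value carries an SD, the sequencing depth is unknown, and values of single samples were not used here. The words rose and fell are kept for genes with a Cuffdiff q below 0.05 in the authors' deposited table, and that q, adjusted over all tested genes, is the only statement of error.

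In a fibroblast that becomes a myofibroblast, smooth muscle alpha actin joins the stress fibres, and non-muscle myosin II pulls on them once its regulatory light chain is phosphorylated. Tropomyosins, calponins and transgelin bind along the actin filaments and set which proteins reach them. Many of these genes are known targets of the transcription factor SRF, which works with MRTF coactivators that sense free actin, and of TGF-beta signalling, while Ctgf and Cyr61 are standard readouts of the coactivators YAP and TAZ, which act through TEAD factors.

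Of the fibroblast markers, named here after their values were seen, Col1a1 was at 463 FPKM under normoxia and 451 under hypoxia and Sparc at 894 and 922 FPKM, whereas the smooth muscle myosin gene Myh11 was at 0.0629 and 0.0671 FPKM and Myocd, the smooth muscle coactivator of SRF, was listed at 0 in both. Of 12 fibroblast markers, 11 had a mean of at least 1 FPKM, and Lum, at 0.0123 FPKM in normoxia and listed at 0 in hypoxia, did not. Pdgfra, at 3.11 and 3.22 FPKM, was the lowest of those 11. Of the 10 fibroblast markers described by their calls, 1 rose, 6 fell and 3 missed the threshold (median -0.39). The share that fell (60%) was the same as that of all 10 members. The markers had to reach a mean of at least 1 FPKM, however, and of the 9 members that did so 6 fell. Of 10 smooth muscle markers, 1 of which (Cnn1) is described below, 7 were below a mean of 1 FPKM and 3 were listed at 0 in both conditions, while Smtn was at 29.3 and 22.6 FPKM and Des at 11.04 and 9.46 FPKM, levels above those of some fibroblast markers. Synm, among those below a mean of 1 FPKM, rose 3.02-fold from 0.388 to 1.17 FPKM (q = 0.000139 in the authors' deposited table). The summed FPKM of the 6 endothelial markers was 0.220 in normoxia and 0.160 in hypoxia, and that of the 6 blood cell markers 1.44 and 2.38. The 6 epithelial markers summed to 353 and 462 FPKM, mostly Krt18, with Cdh1 at 5.93 and 3.76 FPKM. In such bulk samples fewer cells of a type and less RNA per cell cannot be told apart.

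Hypoxia was accompanied by opposite changes within the group. Myl9, Acta2, Tpm1, Cyr61, Cnn2 and Ctgf fell, by 1.22-fold to 2.56-fold, and Tpm2, Cnn1 and Tagln rose, by 1.31-fold to 1.63-fold. Actg2 was barely present and not called. Thus 9 of 10 members (90%) were called, where 57.9% of all tested measurements were; 3 members (30%) rose against a background of 28.9%, and 6 (60%) fell against a background of 29.0%. The share that rose was therefore near the background and the share that fell was above it. These shares are a description only, because the members were chosen with earlier results of these data known. That background was also not matched to the members by level. The median log2 fold change of the members was -0.56, beside -0.013 over all tested measurements. Only Myl9 changed by at least 2-fold, among the members, where 9.87% of all tested measurements fell and 9.03% rose by that much. With a q below 0.01, Ctgf and Tagln were no longer called.

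**Figure D1:**
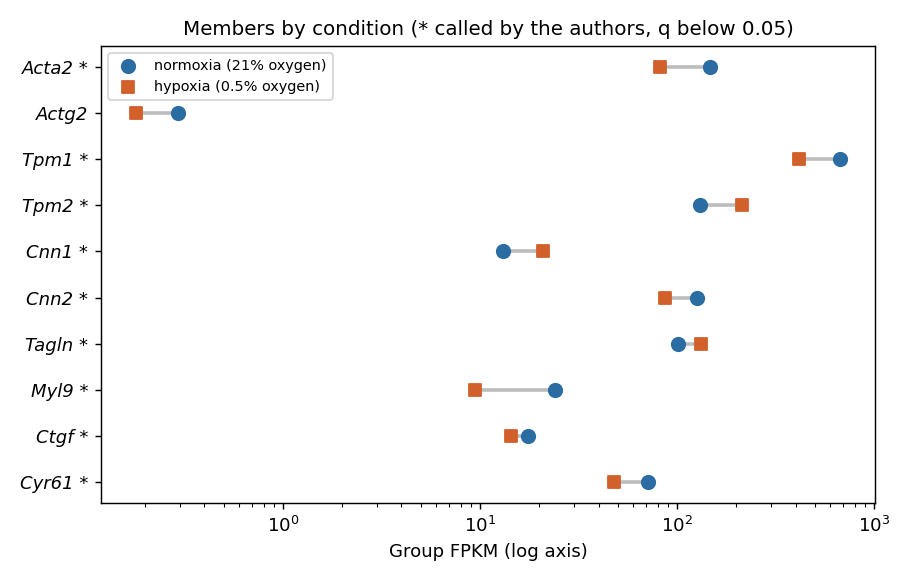
Group FPKM on a log axis of the 10 genes in normoxia (circles) and hypoxia (squares), 1 value per condition, with an asterisk at each gene the authors called. The squares lie to the left of the circles for Acta2, Actg2, Tpm1, Cnn2, Myl9, Ctgf and Cyr61 and to the right for Tpm2, Cnn1 and Tagln.

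The summed FPKM of the table was 1.17-fold higher in hypoxia, a log2 shift of 0.22. When both conditions were set to the same sum, all 9 called members kept their direction, the log2 fold change of Tagln went from 0.39 to 0.17 and that of Ctgf from -0.29 to -0.51. The same shift applies to every member, and Tagln and Ctgf are the called members with log2 fold changes nearest 0. The library scaling was a setting not given in the sources used here.

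Acta2 encodes smooth muscle alpha actin, the defining marker of the myofibroblast (chromosome 19, 34241090 to 34255590, minus strand, on GRCm38). It stood at 147 FPKM under normoxia and 82.0 under hypoxia, a 1.79-fold fall with a q of 0.000139 in the authors' deposited table, the smallest q that table holds. That q is shared by 5148 tested measurements, 7 members among them, and so ranks none of them. Actg2, the gamma actin of enteric smooth muscle (chromosome 6, 83512905 to 83536265, minus strand), was at 0.294 FPKM under normoxia and 0.180 under hypoxia, and the authors' deposited table does not call it (q = 0.197).

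Tpm1 was the most abundant member per length, above 99.2% of all tested measurements in normoxia. It encodes alpha tropomyosin, a coiled coil that runs along the actin filament, and is annotated with 21 transcripts that 1 gene value merges (chromosome 9, 67022590 to 67049406, minus strand). It fell from 674 to 414 FPKM (1.63-fold, q = 0.000139 in the authors' deposited table). Tpm2, the gene of beta tropomyosin (chromosome 4, 43514711 to 43523765, minus strand), rose from 131 to 213 FPKM, also by 1.63-fold and with the same q in the authors' deposited table. The level of Tpm1 was 5.16 times that of Tpm2 in normoxia and 1.94 times in hypoxia.

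The calponins, actin-binding proteins that restrain myosin in smooth muscle, also moved apart. Cnn1, the smooth muscle calponin (chromosome 9, 22099216 to 22109630, plus strand), rose from 13.1 to 21.0 FPKM (1.60-fold, q = 0.000139 in the authors' deposited table). Cnn2, a calponin found in many non-muscle cells (chromosome 10, 79988584 to 79996062, plus strand), fell from 127 to 86.8 FPKM (1.47-fold, q = 0.000139 in the same deposited table of the authors). Cnn2 was 9.74 times as abundant as Cnn1 in normoxia and 4.14 times in hypoxia.

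Tagln encodes transgelin, also called SM22 alpha, an actin-bundling protein and an early marker of smooth muscle (chromosome 9, 45929619 to 45936058, minus strand). It rose from 101 to 133 FPKM, by 1.31-fold, with a q of 0.0123 in the authors' deposited table. Acta2, the other standard myofibroblast marker, thus moved the opposite way: its level was 1.45 times that of Tagln in normoxia and 0.618 times in hypoxia. The deposited locus of Tagln spans 97.5 kb and 7 other identifiers, and the last 108 bases of the Tagln gene overlap Pcsk7 on the other strand. Pcsk7 was at 9.17 and 8.14 FPKM and an antisense transcript inside Tagln, AC122273.1, at 0.501 and 0.661 FPKM, both far below Tagln itself. In the same deposited locus Rnf214 rose from 9.14 to 16.7 FPKM (1.83-fold, q = 0.0133 in the authors' deposited table). Bace1 fell there from 14.1 to 6.60 FPKM (q = 0.000139 in the same deposited table of the authors). The remaining identifiers of that locus besides Tagln were not called or not tested. The libraries were stranded, but use of the strand in counting was not given in the sources used here.

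Myl9 had the largest fold change of the 10 genes. It encodes a regulatory light chain of myosin II, the subunit whose phosphorylation switches on contraction (chromosome 2, 156775420 to 156781658, plus strand). It fell from 24.1 to 9.41 FPKM, by 2.56-fold, with a q of 0.000139 in the authors' deposited table. Of the 12127 tested measurements averaging 1 FPKM or more, 4.65% had a lower log2 fold change than Myl9, against 12.8% for Acta2.

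Ctgf and Cyr61, now named Ccn2 and Ccn1, encode matricellular proteins of the CCN family, which bind integrins and growth factors outside the cell. Cyr61 (chromosome 3, 145646976 to 145649981, minus strand) fell from 71.5 to 48.1 FPKM (1.49-fold, q = 0.000139 in the authors' deposited table). Ctgf (chromosome 10, 24595442 to 24598683, plus strand) went from 17.5 to 14.3 FPKM, the smallest called change of the group (1.22-fold, q = 0.0101 in the authors' deposited table). Its deposited locus also holds the overlapping antisense transcript Gm15270, which was at 1.10 and 1.09 FPKM.

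Members of these families resemble each other in sequence. The longest open reading frames of Acta2 and Actg2 are identical at 84.4% of aligned bases, those of Acta2 and Actb at 83.2%, and those of Myl9 and Myl12b, a non-muscle light chain gene, at 86.3%. Tpm1 and Tpm2 are identical at 76.2% and Cnn1 and Cnn2 at 69.6%. Stretches of 50 identical bases are nevertheless rare. In the GENCODE M21 transcripts, read on the transcript strand only, 9 of the 10 genes share no 50-base word with any other gene. Acta2 shares 7 of its 2146 (0.326%). Words on the opposite strand were not compared, so the antisense overlaps of Tagln with Pcsk7 and of Ctgf with Gm15270 do not enter these counts. The handling of reads with several matches was not given in the sources used here.

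Promoters of members that fell and of members that rose were read for known motifs of SRF and TEAD factors, named above for these genes. Motifs of hypoxia-inducible factors were added because the samples differ in oxygen. Sites of TGF-beta signalling were not searched. RefSeq windows on GRCm38.p6, from 250 bases before to 50 bases after the annotated start, matched 7 of the 10 members by symbol. Tagln, Actg2 and Ctgf had no entry. Both strands were searched for the CArG box, the SRF site, exactly or with 1 mismatch; for GGAATG, the TEAD motif; and for ACGTG and GCGTG, cores of hypoxia response elements. An exact CArG box was found in Myl9 and Cnn2, where 1.63% of all 32851 windows of that length hold one, and Acta2 and Tpm1 held it with 1 mismatch, so 4 of 7 windows had a match with at most 1 mismatch against 21.1% of all windows. The TEAD motif was found in Acta2, Tpm1 and Cyr61 (3 of 7, against 14.7% of all windows), and a hypoxia core in Tpm1, Cnn1, Cnn2 and Cyr61 (4 of 7, against 43.8%). In Cnn2 a hypoxia core overlaps the CArG box by its last base.

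The stretches that hold the matches are shown 5′ to 3′ on the gene's strand for the 5 members that fell and had a window, with the CArG and TEAD matches in capitals. Each ends before the RefSeq start site of its window. The gene bounds of GENCODE M21 printed above begin further upstream for Acta2 and Tpm1, so the Acta2 stretch lies wholly and the Tpm1 stretch mostly inside those bounds, whereas the stretches of Myl9, Cnn2 and Cyr61 lie before them. Myl9 lies at chr2:156775278-156775399 (plus strand; the first match is the exact CArG box and the other has 1 mismatch), Cnn2 at chr10:79988519-79988578 (plus strand; exact CArG box), Acta2 at chr19:34255374-34255544 (minus strand; TEAD motif, then a pair of CArG boxes with 1 mismatch each), Cyr61 at chr3:145650058-145650113 (minus strand; TEAD motif) and Tpm1 at chr9:67049239-67049459 (minus strand; 2 CArG boxes with 1 mismatch each, then the TEAD motif).
Myl9: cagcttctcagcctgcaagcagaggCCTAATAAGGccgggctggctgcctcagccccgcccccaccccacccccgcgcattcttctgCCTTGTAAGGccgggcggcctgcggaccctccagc
Cnn2: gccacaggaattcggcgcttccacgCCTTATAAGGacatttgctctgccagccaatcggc
Acta2: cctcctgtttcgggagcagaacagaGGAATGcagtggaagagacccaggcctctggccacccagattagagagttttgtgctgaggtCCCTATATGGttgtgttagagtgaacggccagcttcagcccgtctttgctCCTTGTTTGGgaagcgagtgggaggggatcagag
Cyr61: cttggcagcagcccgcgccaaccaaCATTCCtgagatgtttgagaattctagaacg
Tpm1: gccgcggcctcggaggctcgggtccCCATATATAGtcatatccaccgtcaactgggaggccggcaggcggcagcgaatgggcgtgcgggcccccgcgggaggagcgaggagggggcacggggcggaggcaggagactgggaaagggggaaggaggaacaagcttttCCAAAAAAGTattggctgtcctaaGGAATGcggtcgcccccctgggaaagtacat
Neither Cnn1 nor Tpm2, the members with a window that rose, held a CArG or TEAD match in this window, and Tpm2 held no hypoxia core either. Tagln, the other member that rose, had no window, so its promoter was not read. The contrast with the members that fell therefore covers Cnn1 and Tpm2 only. Of all windows, 21.1% hold a CArG box with at most 1 mismatch and 14.7% the TEAD motif, so a window without either given motif is common. The share of all windows with at least 1 of these motifs was not counted, and the contrast was not tested. A match of letters is a description and not a binding site, and none of these windows was measured for binding.

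**Figure D2:**
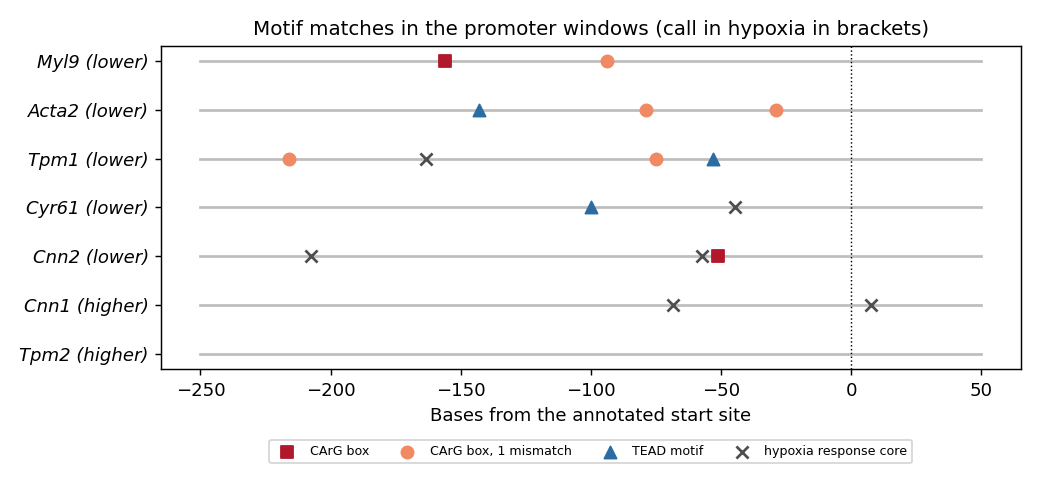
Positions of motif matches in bases from the annotated start site (dotted line) in the promoter windows of 7 members, ordered by log2 fold change, with the authors' call in brackets. Squares, circles and triangles (CArG box, CArG box with 1 mismatch, TEAD motif) appear in the rows of Myl9, Acta2, Tpm1, Cyr61 and Cnn2, and in those of Cnn1 and Tpm2 there are only crosses (hypoxia cores) or none. Tagln, which also rose, is absent because it had no window.

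The members were set beside the other genes of their own families as shares of the families' summed FPKM, a level per length. These shares come from 1 value per condition, and no difference in share was tested. Among the actins the cytoplasmic isoforms fell further than Acta2: Actb, the beta actin gene, went from 1186 to 393 FPKM (3.02-fold) and Actg1, the cytoplasmic gamma actin gene, from 449 to 153 FPKM (2.94-fold), both with a q of 0.000139 in the authors' deposited table. The actins summed to 1782 and 628 FPKM, with Acta2 making up 8.25% and 13.1%. The cardiac actin gene Actc1 was at 0.00608 FPKM in normoxia and listed at 0 in hypoxia, and Acta1 was not analysed here. So the level of Acta2 was lower in hypoxia, while its share of the summed actin FPKM was higher.

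The summed level of the tropomyosins was close in both conditions, at 1437 and 1289 FPKM, but the genes' shares differed. Tpm1 made up 46.9% of the sum in normoxia and 32.1% in hypoxia, and Tpm2 9.08% and 16.5%. Tpm4, a non-muscle isoform gene, rose from 450 to 532 FPKM (1.18-fold, q = 0.0236 in the authors' deposited table) and had the highest level of the tropomyosin genes in hypoxia, with 41.3% of the sum, although it was not called with a q below 0.01 and its log2 fold change was 0.02 when both conditions were set to the same summed FPKM. Tpm3 fell from 182 to 129 FPKM (1.41-fold). Calponins summed to 399 and 275 FPKM: Cnn3 fell from 259 to 168 FPKM beside Cnn2, and Cnn1 went from 3.27% to 7.61% of the sum. Tagln2, the transgelin gene of non-muscle cells, rose 1.26-fold from 337 to 424 FPKM, close to the 1.31-fold of Tagln, and Tagln3 was at 0.0955 FPKM in normoxia and listed at 0 in hypoxia.

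Myl9 was a minor regulatory light chain in these cells. The non-muscle light chain genes Myl12a, at 693 and 830 FPKM, and Myl12b, at 185 and 126 FPKM, missed the threshold in the authors' deposited table (q = 0.0836 and 0.0700), where they lie in 1 locus of 622 kb that holds 15 identifiers. Myl9 made up 2.67% of the 3 genes' sum in normoxia and 0.975% in hypoxia. Within the CCN family every other expressed gene fell further than Ctgf and Cyr61: Nov went from 7.92 to 2.67 FPKM (2.97-fold), Wisp1 from 37.2 to 11.4 FPKM (3.27-fold) and Wisp2 from 5.42 to 1.29 FPKM (4.20-fold), while Wisp3 was at 0.00666 and 0.00818 FPKM and was not tested. The family summed to 140 and 77.7 FPKM, and Cyr61 made up 51.2% and 61.8% of it.

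**Figure D3:**
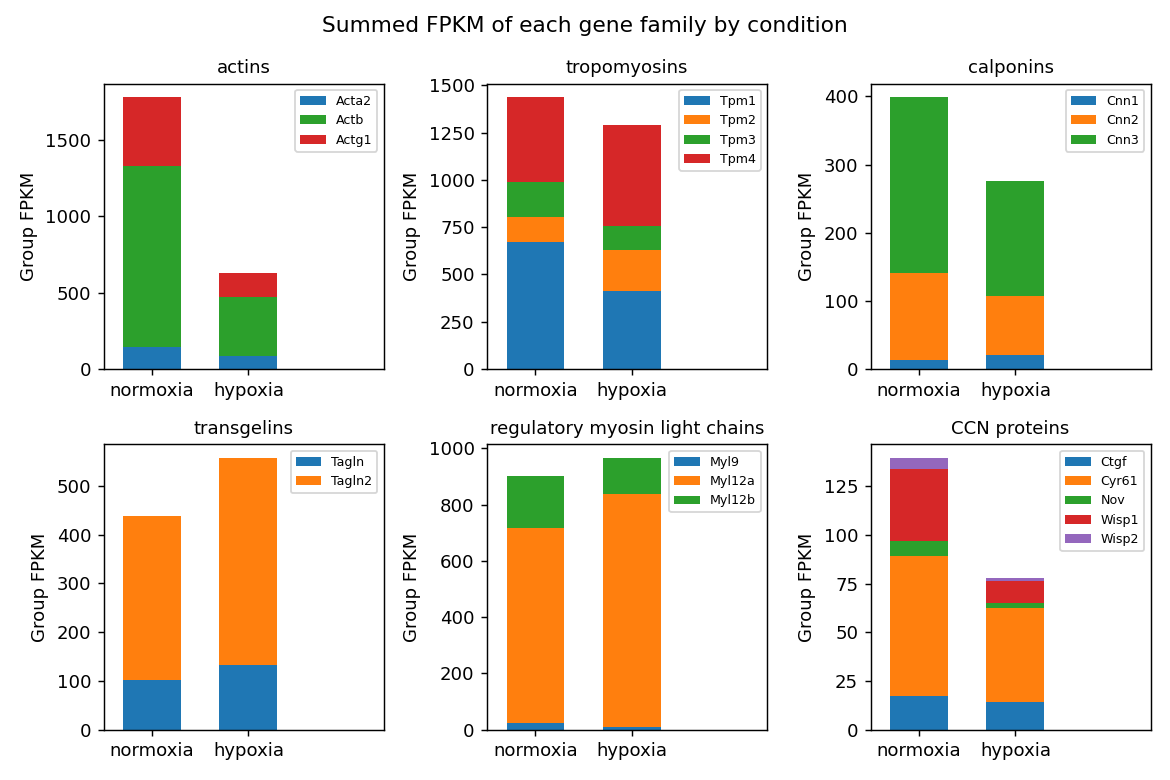
Stacked group FPKM of each gene family in normoxia and hypoxia, 1 value per gene and condition, leaving out genes under 0.5% of their family. The actin bar drops from 1782 to 628 FPKM, whereas the tropomyosin bars reach 1437 and 1289 FPKM with less Tpm1 and more Tpm2 and Tpm4.

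**Figure D4:**
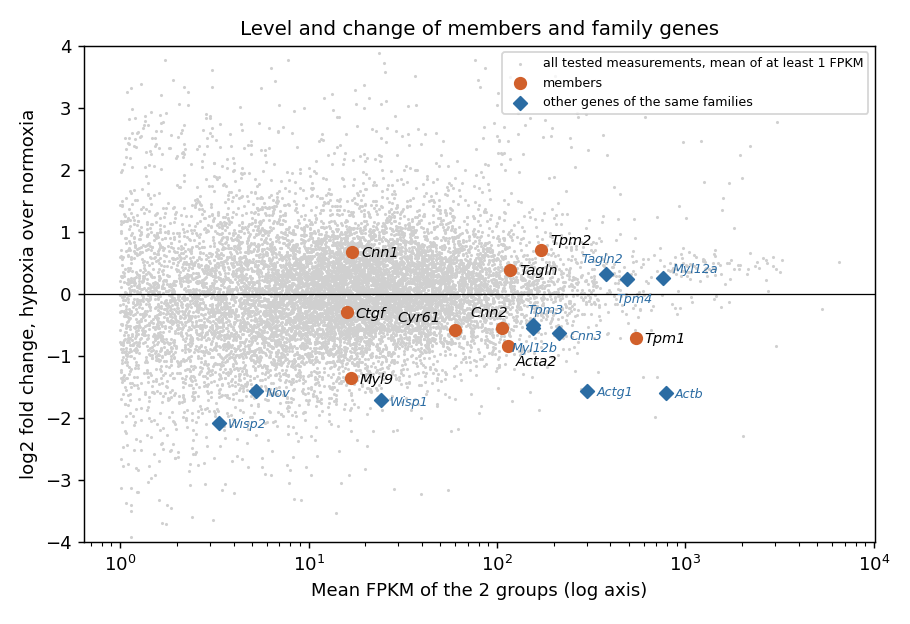
Log2 fold change of hypoxia over normoxia against the mean FPKM of both conditions (log axis) for tested measurements averaging 1 FPKM or more (grey, 42 of them beyond the axis), for 9 members (circles) and for other genes of their families (diamonds). Actb, Actg1 and Wisp1 lie below Acta2 and Myl9, and Tpm2, Cnn1 and Tagln lie above the line of no change.

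Genes that act on the same filaments were taken from lists by function, and among tested list genes with a mean of at least 1 FPKM the calls were set beside all such measurements, of which 32.1% rose and 30.9% fell with a median log2 difference of 0.0027 on the scale of log2(FPKM + 1). Over all 13 pathway lists together 34 of 122 genes rose (27.9%) and 50 fell (41.0%), with a median of -0.17. Of 7 myosin II chain genes none rose, 4 fell and 3 were not called (median -0.24), and with a q below 0.01 only 1 of them, Myh14, fell. Myh9 and Myh10, the main non-muscle heavy chain genes, fell (183 to 155 and 74.3 to 57.8 FPKM), as did Myh14 from 2.05 to 1.25 FPKM, and the essential light chain gene Myl6 from 955 to 814 FPKM. These changes lay between 1.17-fold and 1.64-fold, below the 2.56-fold of Myl9.

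Regulators of myosin phosphorylation went both ways, 4 up and 4 down of 15 with 7 missing the threshold (median 0.051). Rhob, a small GTPase of stress fibre signalling, fell from 58.7 to 17.3 FPKM (3.40-fold), Ppp1r14b, an inhibitor of myosin phosphatase, from 185 to 56.0 FPKM (3.30-fold), and the caldesmon gene Cald1 from 286 to 180 FPKM. Rhoa, Rock1, Ppp1cb and Ppp1r12b, named here after their values were seen, were those that rose, by 1.18-fold to 1.49-fold. Mylk, which encodes the kinase that phosphorylates the regulatory light chain and was also named after its values were seen, fell 2.21-fold from 0.719 to 0.325 FPKM, below the filter (q = 0.000139 in the authors' deposited table). Of the tropomodulin and leiomodin genes, whose products cap or extend thin filaments, only Tmod3 passed the filter and rose from 42.5 to 64.1 FPKM (1.51-fold). Tmod2 fell from 0.833 to 0.470 FPKM, Tmod1 (0.0889 and 0.382 FPKM) was not called, and Tmod4 and Lmod1 to Lmod3 were not tested.

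Srf itself, at 17.6 and 11.4 FPKM, missed the threshold in the authors' deposited table (q = 0.298), where it lies in a locus of 389 kb with 21 other identifiers. The MRTF genes Mkl1 (18.5 and 16.9 FPKM) and Mkl2 (6.38 and 7.30 FPKM) and the ternary complex factor gene Elk3 (18.1 and 17.7 FPKM) were not called either, and Elk1 and Elk4 have rows only together with a neighbouring gene. Scai, a suppressor of MRTF activity, rose from 4.19 to 9.72 FPKM (2.32-fold) and was the 1 gene called among the 5 of this list. Among 17 other SRF and MRTF targets 8 fell and 3 rose, leaving 6 without a call (median -0.20). Filip1l fell from 15.8 to 5.82 FPKM (2.72-fold) and Flna, the gene of the actin crosslinker filamin A, from 255 to 112 FPKM (2.27-fold), whereas the LIM domain genes Fhl2 and Pdlim5 rose from 8.38 to 14.8 FPKM and from 29.9 to 41.2 FPKM.

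Among genes of YAP, TAZ, TEAD and the Hippo kinases 5 of 15 rose, 5 fell (3 with a q below 0.01) and 5 did neither (median -0.11). The coactivator genes themselves, named after their values were seen, went opposite ways: Yap1 fell from 36.3 to 30.4 FPKM and Wwtr1, which encodes TAZ, rose from 55.2 to 76.3 FPKM. Vgll3, a TEAD cofactor gene, and Nf2, a Hippo activator, fell 2.11-fold and 2.00-fold, and the kinase genes Lats1 and Stk3 rose 1.48-fold and 1.42-fold. Of 18 other YAP and TAZ targets 4 rose, 6 fell and 8 did neither (median -0.091), so the shares, 22.2% and 33.3%, were near or below those of all measurements. Gadd45a rose from 25.8 to 87.7 FPKM, Rbms3 from 3.38 to 8.39 FPKM and the tissue factor gene F3 from 8.26 to 14.6 FPKM, and Tgfb2 fell from 4.89 to 2.75 FPKM. Ankrd1 and Amotl2, often read together with Ctgf and Cyr61 and named after their values were seen, fell 1.56-fold and 1.68-fold. Others of the same list, also named after their values were seen, did not fall: Amotl1 rose 1.31-fold, and Axl, Ajuba and Nuak2 were not called.

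TGF-beta-induced genes of fibroblasts were split: 7 of 16 rose, 6 fell and 3 missed the threshold (median -0.15, which turned to 0.54 with a filter of 5 FPKM). Bhlhe40, also a known target of hypoxia-inducible factors, rose from 35.0 to 194 FPKM (5.56-fold), and Cdh11 and Id1 fell 2.98-fold and 2.31-fold. In focal adhesions and stress fibres 7 of 19 rose, 10 fell and 2 did neither (median -0.21). Tns3, Vasp and Pdlim2, whose products sit on adhesions or actin bundles, fell 2.15-fold, 2.03-fold and 1.75-fold, and Lims2 and Palld, the gene of the stress fibre protein palladin, rose from 1.23 to 2.99 FPKM and from 48.9 to 81.5 FPKM.

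**Figure D5:**
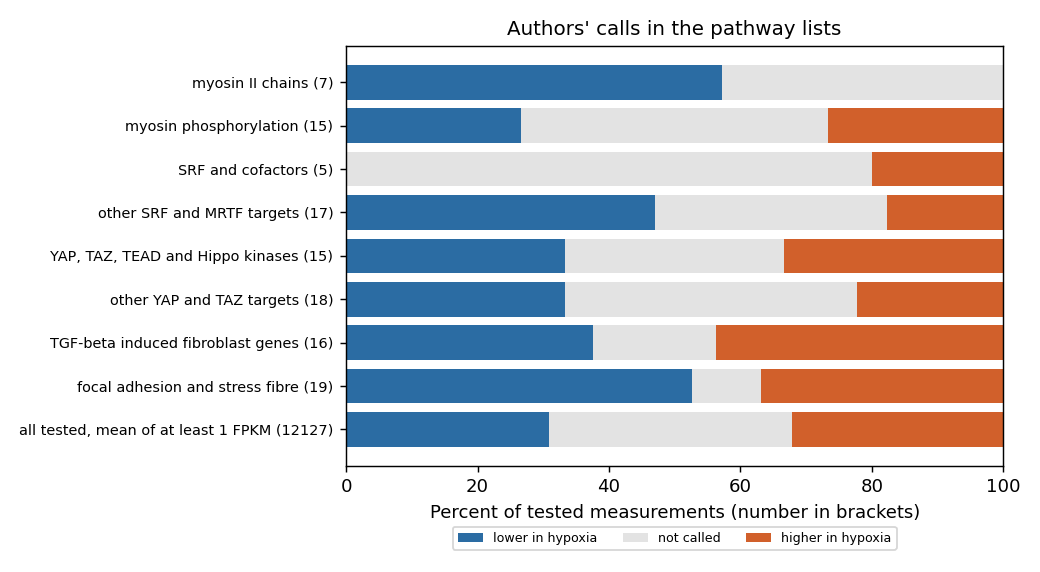
Percent of tested genes with a mean of at least 1 FPKM that the authors called lower, did not call or called higher in hypoxia, for the pathway lists with at least 5 such genes (number in brackets) and for all 12127 measurements. Myosin II chains have no gene higher and 57.1% lower, and the SRF cofactor list has none lower.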

How the data were processed

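Poly-A selected, stranded RNA-seq libraries of 6 samples (3 in normoxia, 3 in hypoxia) were deposited as 1 gene table. Per the submitters' processing notes, the tools were Cuffdiff 2.2.1, Cufflinks, StringTie 1.3.4d and HISAT2 2.1.0, and the build was GRCm38. Per the file headers the authors gave 1 FPKM per group, a log2 fold change of hypoxia over normoxia, a test statistic (a score, unused here), a p-value and a q-value. No per-sample values were used here, so no test between replicates was run and the planned fits to single samples were not made. Rows that repeat 1 measurement were counted once. Folds are ratios of the authors' FPKM values.

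The members and lists were chosen with earlier results of these data known. The 19 lists hold 196 symbols, 7 of which had no row; a measurement under several gene names was left out of lists. Lists were described for genes with a mean of at least 1 FPKM, with medians on log2(FPKM + 1) and no set test. Genes named were all members, every gene of the families, the tropomodulins and the SRF cofactors, and from each other list up to 4 called genes with the largest change and 2 against the majority, or all where at most 5 were called; markers named beyond these were chosen after their values were seen, and some results are not reported here. Coordinates are 1-based, from GENCODE M21 (GRCm38). Open reading frames were aligned with Biopython 1.88. Counting, word matching and motif search were tested on simulated data (8 of 8 known answers recovered, counts on 2000 genes). The motif search was simulated with an exact CArG box only. Its mismatches, the TEAD motif, the hypoxia cores and positions relative to the start site were not simulated. Alternatives were a q of 0.01, a 2-fold threshold, filters of 0 and 5 FPKM, pseudocounts of 1 and 0.1, and other scalings.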

Additional observations from a re-analysis of the deposited data

How the results depend on the processing

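No paired analysis was possible because the deposited table holds 1 value per condition, and for the same reason no replicate could be left out. Each member kept its direction after rescaling by the median of ratios, after rescaling to equal summed FPKM (chosen after seeing the data), relative to Tbp (also chosen then) and with pseudocounts of 1 and 0.1. A pseudocount cannot change a direction. The log2 shifts were 0.0029 for the median of ratios, 0.22 for equal summed FPKM and 0.054 for Tbp. All are smaller in size than the smallest log2 fold change of a member (-0.29, Ctgf), so the size of the shifts set these outcomes. With a q below 0.01, 2 members were higher and 5 lower. With a change of at least 2-fold required, 0 members were higher and 1 was lower, and of the pathway genes 7 were higher and 17 lower, in place of 34 and 50; the threshold itself sets these counts. At q below 0.01 the myosin II chains called lower went from 4 to 1, the Hippo list from 5 to 3 and Tpm4 lost its call. At q below 0.01, without the filter, with 5 FPKM, with shared measurements and under both rescalings the pathway totals stayed within 1.5 times. Under the rescalings the authors' q was kept, so a gene could change its call only by a change of sign. Those totals therefore say little about the scaling. Relative to Actb, chosen after seeing the data, the log2 fold change became 0.75 for Acta2, 0.89 for Tpm1, 1.04 for Cnn2, 0.24 for Myl9, 1.303 for Ctgf and 1.02 for Cyr61; relative to Gapdh it became -1.03 for Tpm2, -1.05 for Cnn1 and -1.34 for Tagln. These reversals follow from the fall of Actb and the rise of Gapdh. Equal summed FPKM moved 19 medians, of lists and of all pathway genes together, by over 0.1. Depth is unknown, which limits what can be said of Actg2 and other low genes.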

Other observations

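Sarcomeric and epithelial genes outside the lists of contractile targets also differed. Among 10 skeletal and cardiac muscle markers, 7 were below a mean of 1 FPKM, including Myod1 and Nppa, listed at 0. Of the other 3, the cardiac troponin T gene Tnnt2 rose from 2.31 to 4.60 FPKM and the slow troponin I gene Tnni1 fell from 6.05 to 1.87 FPKM, each with a q of 0.000139 in the authors' deposited table, and Tnnc1 was not called. The keratin genes Krt8 and Krt18, whose products pair with each other, went opposite ways, Krt8 from 28.3 to 10.1 FPKM and Krt18 from 313 to 443 FPKM. Among fibroblast markers Vim rose from 883 to 2249 FPKM, while Col1a2, Col3a1, Pdgfrb, Fbn1, Thy1 and Dcn fell.

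Genes that laboratories often use to scale transcript measurements moved in opposite directions. These genes were chosen after values were seen. Actb fell 3.02-fold, with 2.89% of the tested measurements of at least 1 FPKM having a lower log2 fold change, and Gapdh rose 3.33-fold from 193 to 641 FPKM. Dividing by a gene shifts all members by 1 constant, so the counts that follow are set by the reference: relative to Actb all 10 members were higher in hypoxia, and relative to Gapdh all 10 were lower. Tbp (35.6 and 37.0 FPKM, q = 0.757) and Hprt (66.4 and 57.8 FPKM, q = 0.0574) were not called in the authors' deposited table, and relative to either of them 3 members were higher and 7 lower, as in the deposited values. Gusb fell 5.77-fold, and Tfrc and Pgk1 rose 3.67-fold and 5.53-fold.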
